A study of Gallus gallus with 8 samples.

Results

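The 100 genes with the most reads in chicken liver are described here by level, by share of all reads and by their change with ascites and sex. They were chosen from 14634 measured genes as those with the highest mean of the deposited log2 values over all 8 samples, so their high level is the rule and not a result. All 100 passed the filter on low values that left 13766 genes for testing.

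RNA was sequenced from the livers of meat-type chickens (Gallus gallus). Birds that developed ascites ("Water belly" in the labels, a build-up of fluid in the abdomen linked to high pressure in the lung arteries) were set against birds that stayed healthy. Every bird met the same challenge, a house brought from 24 °C down to 18 °C on day 22 and held there to the close of the trial on day 48, with high-energy feed. Livers of 32 birds were combined into 8 pools of 4, 2 pools for each sex in each disease state. A label entry reads day 42 under the heading genotype, and no age is drawn from it. Ascites arose in some birds and was not assigned, and no bird was kept warm, so the comparison is between disease states in the cold. The pool is the replicate: p-values reflect how far pools differ, and variation from bird to bird cannot be seen.

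Liver parenchyma devotes much of its messenger RNA to secreted proteins: albumin and other carriers of the blood plasma, apolipoproteins that package fat for export, clotting factors and iron carriers. In birds the liver is also the main site of fatty acid synthesis, and in laying hens it makes the yolk precursors under estrogen. Messages of the mitochondrial genome, which encode subunits of the respiratory chain, are also plentiful in tissues with many mitochondria. This is background: the file lists Ensembl IDs without gene names, and 0 of the IDs could be matched to the reference table, so none of these roles is assigned to a gene below. Liver markers could not be looked up for the same reason. Genes are therefore called by their rank in the mean value (rank 1 the highest), and 4 are also given by ID.

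Levels are given either as a share of the reads of a pool or as normalized reads, which are reads divided by the size factor the authors used for that pool (1 kilo-read is 1000 normalized reads). Both count reads and not molecules, and a long transcript gives more reads than a short one. Gene lengths were not matched, so the ranks order reads and do not order transcripts. The reads of a pool are those summed over the 14634 measured genes, and reads outside these genes are not included. Total reads in this sense ran from 26459951 to 33193179 per pool. The smallest number of reads of any of the 100 genes in any pool was 5354. The 95% Wilson interval of a gene's share reached at most 2.68% of that share to either side, which covers counting error only. In bulk tissue, fewer cells of a type and less RNA per cell cannot be told apart.

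Some pools stood apart before any comparison. In healthy female 2, 13 of the 100 genes were more than 1 log2 unit above every other pool in normalized reads and 2 were more than 1 log2 unit below, while no other pool had a gene above and only ascitic male 2 had genes below (3). Counted in shares of reads, healthy female 2 had 7 genes above and 9 below by that margin. The pool labelled healthy male 1 then had 1 above, and ascitic male 2 had 1 below. The size factor of healthy female 2 was 0.484, while the remaining healthy pools had 0.857 to 0.946 and the ascitic ones 1.09 to 1.56. The pool labelled healthy male 1 went against its label in 11 genes that had at least 50 normalized reads in each female pool and at most 5 in each of the other 3 male pools. Summed, those genes had 6493 to 14499 normalized reads in the female pools, at most 6.43 in the other male pools and 5585 in the pool labelled healthy male 1. None of the 11 is among the 100 genes. Between the 2 pools of a group, the median absolute log2 ratio of normalized reads over the 100 genes was 0.14 in ascitic females, 0.41 in healthy males, 0.64 in ascitic males and 0.80 in healthy females. In shares of reads it was 0.14 in ascitic females, 0.50 in healthy males, 0.27 in ascitic males and 0.79 in healthy females.

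More than 50% of all reads in the measured genes came from these 100 genes in each of the 8 pools. Their share was 57.0% and 64.3% in the healthy female pools, 60.6% in the pool labelled healthy male 1 and 58.1% in healthy male 2. Ascitic females had 55.1% and 55.3%, and ascitic males 60.7% and 51.1%. Healthy pools averaged 60.0% ± 3.23 and ascitic pools 55.6% ± 3.90 (SD, n = 4 each), and their ranges overlapped. By sex the means were 57.9% ± 4.31 in females and 57.6% ± 4.48 in males (SD, n = 4 each).

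Reads were concentrated in very few genes. Ranks 1 to 4 alone held 16.8% to 26.9% of the reads of a pool, and ranks 1 to 10 held 27.6% to 35.3%. Counted with each pool's own order of genes, 50% of all reads came from 21 genes in healthy female 2, 31 in the pool labelled healthy male 1, 43 in healthy male 2 and 45 in healthy female 1. In the ascitic pools that number was 32 in male 1, 57 and 59 in the females and 77 in male 2. Ascitic male 1 was thus as concentrated as the healthy pools, and ascitic male 2 was the least concentrated of all.

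**Figure D1:**
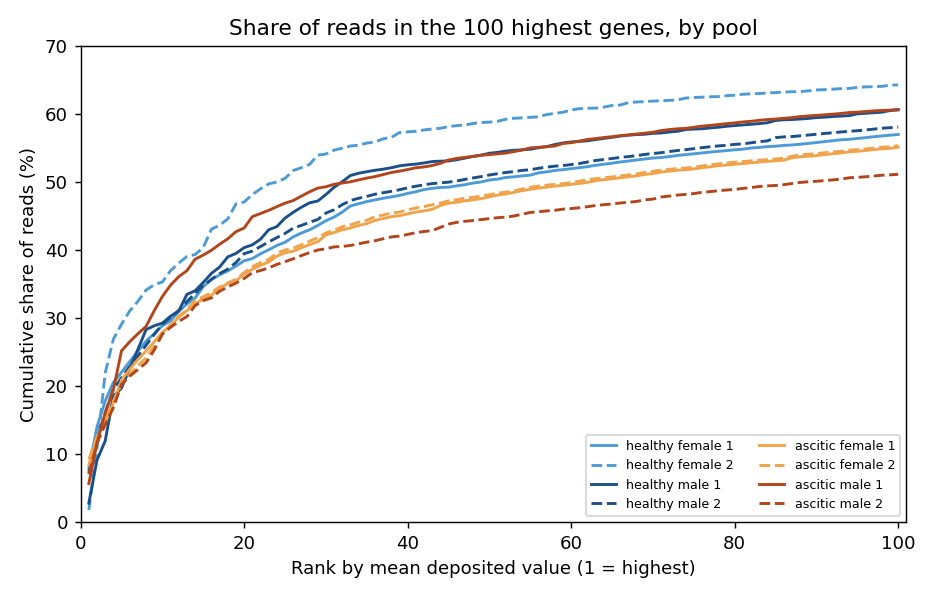
Cumulative share of reads (%) against rank by mean deposited value, 1 line per pool, with groups by colour and the second pool of a group dashed. Healthy female 2 ends highest at 64.3% and ascitic male 2 lowest at 51.1%, while the other 6 pools end between 55.1% and 60.7%.

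The gene of rank 1 was the most read gene in only 5 of the 8 pools. It took 7.80% and 1.79% of reads in the healthy female pools, 2.80% in the pool labelled healthy male 1, 7.25% in healthy male 2, 8.39% and 9.26% in the ascitic females, and 5.70% and 7.08% in the ascitic males. Healthy female 2 and the pool labelled healthy male 1 lay below all other pools. In healthy female 2 the most read gene was rank 3, at 11.1% of reads, in the pool labelled healthy male 1 it was rank 4, at 6.59%, and in ascitic male 1 it was rank 2, at 5.94%.

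Rank 2 had 1916 and 5002 kilo-reads in the healthy females, 2091 and 1414 kilo-reads in the healthy males, 937 and 769.6 kilo-reads in the ascitic females and 1672 and 895 kilo-reads in the ascitic males. Rank 3 had 1178 and 6152 kilo-reads in the healthy females, 916 and 1131 kilo-reads in the healthy males, 479 and 577 kilo-reads in the ascitic females and 1253 and 520.0 kilo-reads in the ascitic males. In both genes healthy female 2 was far above the rest, and ascitic male 1 lay among the healthy pools.

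Neither gene passed the test of ascites, with log2 fold changes of -1.18 and -1.35 and standard errors of 0.46 and 0.61 (limma, adjusted p = 0.127 and 0.181). In rank 5 healthy female 2 was again the highest healthy pool, with 1229 kilo-reads against 395 to 491 kilo-reads, but ascitic male 1 was higher still at 1602 kilo-reads.

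Membership itself varied between pools. Of the 100 genes that each pool placed highest, 91 and 90 were members in the ascitic females, 88 and 82 in the ascitic males, 88 in healthy female 1 and 89 in healthy male 2. Only 75 were members in the pool labelled healthy male 1 and 67 in healthy female 2. Altogether 48 of the 100 genes stood among the first 100 in all 8 pools. A member fell as far as place 458 in healthy female 2 and place 313 in healthy female 1.

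The edge of the list was not a step. Rank 99 and rank 100 had mean log2 values of 14.72 and 14.71, and the first genes outside it, the next 2 in the order, had 14.685 and 14.67. Ranking by the mean of normalized reads kept 93 of the 100 genes, and ranking by the mean share of reads kept 95.

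Some of the most read genes were steady and others were not. The share of reads differed between the highest and lowest pool by more than 2-fold for 80 of the 100 genes and by more than 4-fold for 38. The smallest spread of log2 values over the 8 pools was that of rank 73, with an SD of 0.28, followed by ranks 17, 92, 86 and 40 at 0.29 to 0.33. Rank 73 held 28.3 to 49.2 kilo-reads, a range of 1.74-fold.

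The largest spreads belonged to ranks 45, 32, 85, 33 and 16, with SDs of 1.46, 1.38, 1.30, 1.30 and 1.29. Rank 45 held 12.1 and 140 kilo-reads in the healthy females, 11.8 and 33.01 kilo-reads in the healthy males, 78.7 and 73.6 kilo-reads in the ascitic females and 142 and 94.4 kilo-reads in the ascitic males. Its 2 healthy female pools thus lay near opposite ends of the range. The ascites effect for rank 45 was a log2 fold change of 1.72 (SE 0.72) and did not pass on the deposited scale (limma, adjusted p = 0.150). With scaling by total reads it was 2.34 and passed (limma, adjusted p = 0.0146). Its share of reads was 0.036% to 0.252% in healthy and 0.320% to 0.503% in ascitic pools.

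**Figure D2:**
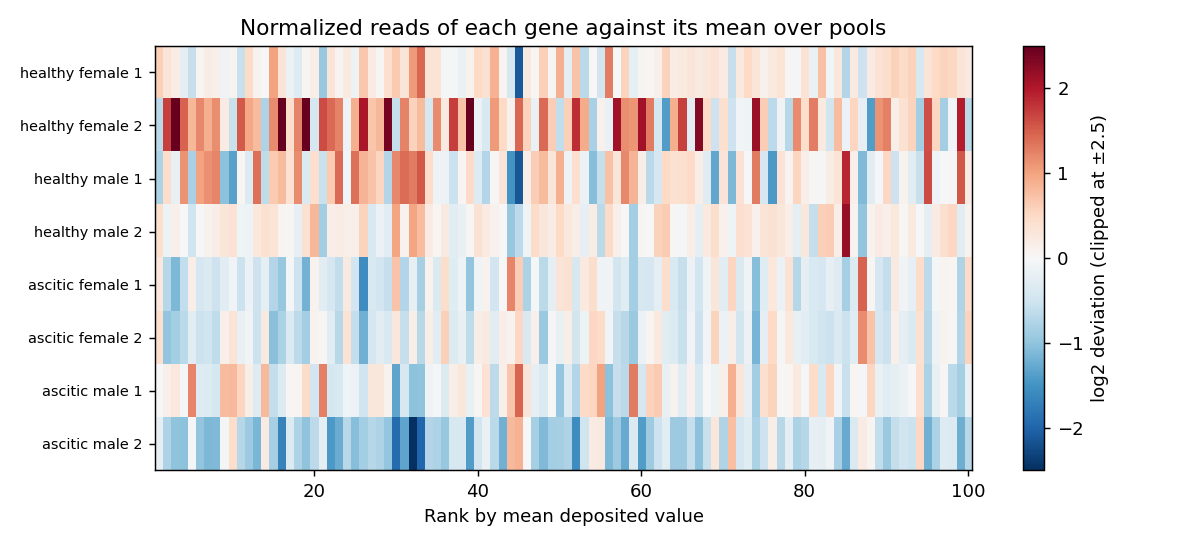
Deviation of each gene's normalized reads from its own mean over the 8 pools (log2, colours clipped at 2.5), with genes in order of rank on the x axis and 1 row per pool. In normalized reads healthy female 2 is the highest pool for 47 of the 100 genes and ascitic male 2 the lowest for 63. By share of reads, which is not drawn, healthy female 2 is the highest for 16 and the lowest for 39. Ascitic male 2 is then the lowest for 23.

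Small sets of genes rose and fell together from pool to pool. Pairs with a Pearson correlation of at least 0.97 between their log2 shares over the 8 pools were joined into sets, as a description chosen after the values were seen. All shares of a pool have the same total as divisor. Of 4950 pairs, 20 reached that value, and the median over all pairs was 0.053. Ranks 6, 8, 23 and 31 formed a set in which the lowest pairwise correlation was 0.96. Together they took 8.23% of reads in the pool labelled healthy male 1, 4.13% to 4.92% in the other healthy pools and 2.84% to 3.66% in the ascitic pools.

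A second set held ranks 1, 10, 40, 41, 54 and 76, with a lowest pairwise correlation of 0.81. It took 2.47% of reads in healthy female 2 and 3.56% in the pool labelled healthy male 1, against 8.68% to 12.2% in the other 6 pools. It did not separate ascitic from healthy pools, since healthy female 1 and healthy male 2 stood at 9.75% and 9.59%. Ranks 16, 39 and 65 formed another set, at 3.65% of reads in healthy female 2, 1.29% to 1.77% in the other healthy pools and 0.646% to 1.03% in the ascitic pools. Ranks 34, 66 and 77 formed the last, at 0.225% in healthy female 2 and 0.494% to 0.699% in the other pools.

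The comparison of ascitic with healthy birds of both sexes asked which of these transcripts differ with the disease. On the deposited scale 16 of the 100 genes fell and 4 rose in ascitic birds (limma, additive model of sex and disease status, adjusted p under 0.05 over all genes tested). Over all genes tested, 4.47% were called lower and 5.59% higher, 10.1% in all. At an unadjusted p under 0.05, 37 of the 100 were lower and 7 higher, against 13.6% and 15.5% of all genes tested. By sign alone 79 of the 100 were lower, against 48.6% of all genes tested. The median log2 fold change of the 100 genes was -0.48 (interquartile range -1.16 to -0.15), and that of all genes tested was 0.02. The members and this pattern of abundant genes were known from an earlier look at the data, so these counts are a description of the list.

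In normalized reads the 4 ascitic pools lay wholly below the 4 healthy pools for 33 of the 100 genes and wholly above them for 5. Over all genes tested, the pools did not overlap for 10.7% in the lower and 10.6% in the higher direction. All 20 genes that passed were among those whose pools did not overlap in normalized reads. In shares of reads the pools of some of them overlapped, ranks 32, 42 and 58 included.

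The falls were spread along the list. Ranks 1 to 10 held 1 gene that fell and none that rose, ranks 11 to 50 held 9 that fell and 1 that rose, and ranks 51 to 100 held 6 and 3. The 16 genes that fell took 9.21% ± 1.79 of healthy reads and 4.72% ± 0.53 of ascitic reads, and the 4 that rose took 0.284% ± 0.080 and 1.03% ± 0.25 (SD over 4 pools). These sums were formed after the genes were called and carry no test. The ratio of mean normalized reads, healthy over ascitic, ran from 2.15 to 4.71 among the genes that fell. The ratio of ascitic over healthy ran from 1.82 to 2.83 among those that rose.

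**Figure D3:**
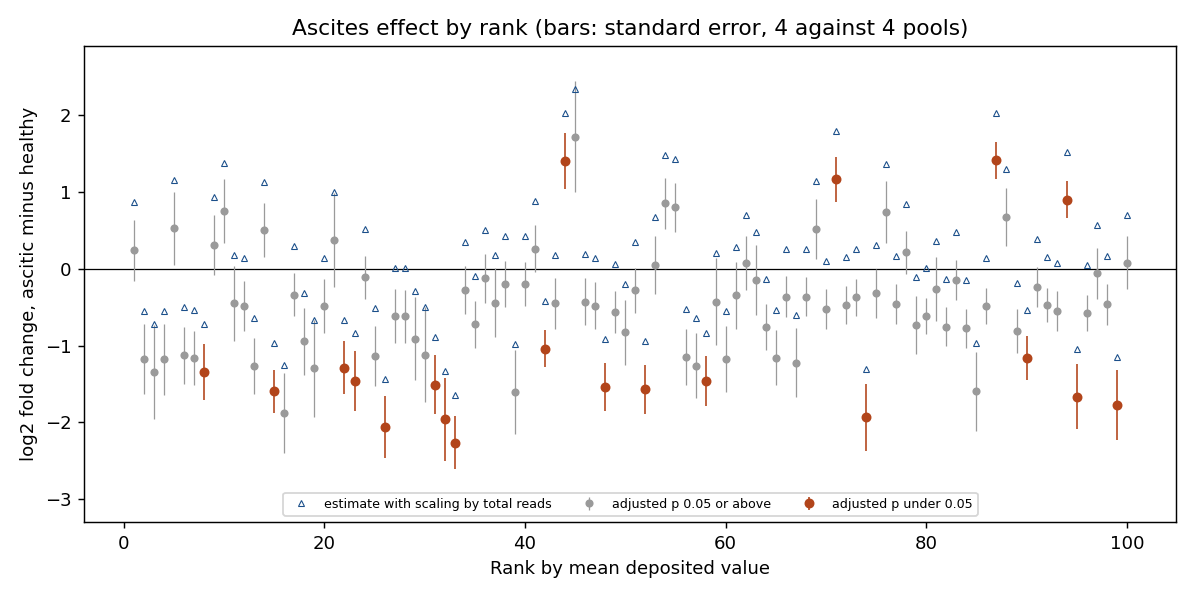
Log2 fold change, ascitic minus healthy, against rank by mean deposited value, with standard errors as bars. Red points are the 20 genes past the threshold (16 lower, 4 higher), grey points the other 80, and open triangles the same estimates with scaling by total reads, which sit higher throughout.

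ENSGALG00000015143, rank 33, showed the largest fall among the genes that passed. It had 276 and 177 kilo-reads in the healthy females and 301 and 174 kilo-reads in the healthy males. The ascitic females had 57.3 and 62.9 kilo-reads and the ascitic males 50.8 and 25.9 kilo-reads. In normalized reads every healthy pool lay far above every ascitic pool. The gap was narrower in shares of reads, where the lowest healthy pool (healthy female 2) had 0.319% and the highest ascitic pool (ascitic female 2) 0.273%.

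For rank 33 the means were 232 ± 65.8 and 49.2 ± 16.3 kilo-reads (SD, n = 4 each), and the log2 fold change was -2.27 (SE 0.35, limma, adjusted p = 0.00697). It was called under all 19 alternative settings of this test, where the log2 fold change ran from -2.47 to -1.64 and the adjusted p from 0.000681 to 0.0313.

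ENSGALG00000007109, rank 26, fell next most. Its levels were 247 and 633 kilo-reads in the healthy females, 279.9 and 226 kilo-reads in the healthy males, 52.8 and 67.2 kilo-reads in the ascitic females and 109 and 85.3 kilo-reads in the ascitic males. Healthy female 2 stood far above the other 3 healthy pools, and these still lay above all ascitic pools.

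The log2 fold change of rank 26 was -2.06 (SE 0.40, limma, adjusted p = 0.0163). It remained called in 15 of 19 alternatives, with an adjusted p between 0.00296 and 0.0639.

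Rank 15 was the second most read of the genes that fell. It had 518 and 579 kilo-reads in the healthy females and 406 and 327 kilo-reads in the healthy males. All 4 ascitic pools were close together, at 155 and 125 kilo-reads in females and 171 and 144 kilo-reads in males. Its log2 fold change was -1.60 (SE 0.28, limma, adjusted p = 0.0114), and it was called in 17 of 19 alternatives.

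Rank 8, the most read of the genes that fell, had 449.7 and 928 kilo-reads in the healthy females, 964 and 462 kilo-reads in the healthy males, 288 and 265 kilo-reads in the ascitic females and 306 and 192 kilo-reads in the ascitic males. Its highest values were those of healthy female 2 and the pool labelled healthy male 1. The log2 fold change was -1.34 (SE 0.37, limma, adjusted p = 0.0493), and it was called in 7 of 19 alternatives. Ranks 6 and 7 did not overlap between disease states in normalized reads either and stayed short of the threshold. Their log2 fold changes were -1.13 and -1.16 (limma, adjusted p = 0.0833 and 0.0693). In shares of reads rank 7 did overlap, at 1.41% in the lowest healthy pool and 1.43% in the highest ascitic pool.

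Ranks 23 and 31, which moved with ranks 6 and 8 in the set above, fell as well. Their log2 fold changes were -1.46 and -1.51, with standard errors of 0.39 and 0.38 (limma, adjusted p = 0.0463 and 0.0394). They were called in 10 and 11 of 19 alternatives. Both were highest in the pool labelled healthy male 1, at 458 and 349.6 kilo-reads, and their ascitic pools held 72.9 to 132 and 53.1 to 100.6 kilo-reads.

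Ranks 74, 95 and 99 fell from a broad healthy range to a narrow ascitic one. Rank 74 had 42.1 and 154 kilo-reads in the healthy females and 84.9 and 36.9 kilo-reads in the healthy males, against 16.4, 15.3, 18.9 and 19.9 kilo-reads in the ascitic pools. For rank 99 the values were 33.6 and 104 kilo-reads, 78.7 and 22.0 kilo-reads, and 11.6 to 16.1 kilo-reads over the ascitic pools. Rank 95 ran from 24.3 to 87.6 kilo-reads in healthy and from 12.4 to 18.1 kilo-reads in ascitic pools. In ranks 74 and 99 the highest healthy values were those of healthy female 2 and the pool labelled healthy male 1. The log2 fold changes of ranks 74, 95 and 99 were -1.93, -1.66 and -1.77 (limma, adjusted p = 0.0280, 0.0405 and 0.0414). Without both of those pools the log2 fold changes were smaller, at -1.17, -0.88 and -0.90. These genes were called in 13, 12 and 13 of 19 alternatives.

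Rank 32 had 229 and 163 kilo-reads in the healthy females and 271 and 216 kilo-reads in the healthy males. The ascitic females had 94.9 and 122 kilo-reads, and the ascitic males had 53.9 and 15.1 kilo-reads. Its log2 fold change was -1.96 (SE 0.53, limma, adjusted p = 0.0488), and it was called in only 5 of 19 alternatives.

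The 6 other genes that fell were ranks 22, 42, 48, 52, 58 and 90. Their log2 fold changes were -1.29, -1.04, -1.54, -1.57, -1.46 and -1.16 in that order. The adjusted p values were 0.0478, 0.0306, 0.0178, 0.0183, 0.0268 and 0.0368 (limma). They were called in 9, 11, 15, 15, 13 and 12 of 19 alternatives. Rank 48 had 61.5 to 134 kilo-reads in healthy and 23.4 to 38.9 kilo-reads in ascitic pools, and rank 52 had 50.8 to 163 and 15.5 to 34.4 kilo-reads. Rank 42 had 55.4 to 113 and 33.7 to 44.9 kilo-reads.

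Rank 16 had a larger estimate than most of these and missed the threshold on the deposited scale. It had 317 and 1491 kilo-reads in the healthy females, 438 and 266 kilo-reads in the healthy males and 79.7 to 199 kilo-reads in the ascitic pools, without overlap. Its log2 fold change was -1.88 (SE 0.52, limma, adjusted p = 0.0514). With scaling by total reads it was -1.25 and passed (limma, adjusted p = 0.0325).

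The 4 genes that rose were ranks 44, 71, 87 and 94. ENSGALG00000004518, rank 87, rose most, from 20.3 and 25.5 kilo-reads in the healthy females and 13.6 and 14.7 kilo-reads in the healthy males. Ascitic females had 80.8 and 66.2 kilo-reads and ascitic males 28.5 and 33.7 kilo-reads. In normalized reads the female pools exceeded the male pools within each disease state. In shares of reads the healthy pools of the sexes overlapped, at 0.046% in healthy female 2 and 0.051% in healthy male 2.

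For rank 87 the log2 fold change was 1.41 (SE 0.24, limma, adjusted p = 0.01004). It passed under all 19 alternatives, with a log2 fold change between 1.29 and 2.03 and an adjusted p between 0.00233 and 0.0481.

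ENSGALG00000019845, rank 44, rose by nearly the same amount. It had 39.7 and 57.1 kilo-reads in the healthy females, 19.0 and 27.9 kilo-reads in the healthy males, 125 and 57.4 kilo-reads in the ascitic females and 86.6 and 93.8 kilo-reads in the ascitic males. Healthy female 2 and ascitic female 2 were almost level in normalized reads, while their shares of reads were 0.103% and 0.249%. The log2 fold change was 1.40 (SE 0.36, limma, adjusted p = 0.0413), and 12 of 19 alternatives called it (adjusted p 0.00407 to 0.131).

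Rank 71 rose from 24.2, 25.2, 16.7 and 33.4 kilo-reads in the healthy pools to 52.3, 40.0, 67.1 and 60.9 kilo-reads in the ascitic pools, a log2 fold change of 1.16 (SE 0.29, limma, adjusted p = 0.0375). Rank 94 went from 21.6, 15.7, 19.4 and 28.5 kilo-reads to 39.2, 37.2, 38.1 and 40.8 kilo-reads, a log2 fold change of 0.90 (SE 0.24, limma, adjusted p = 0.0483). The ascitic pools of rank 94 were nearly equal, with an SD of 1.57 kilo-reads around a mean of 38.8 kilo-reads. Rank 94 was called in 9 of 19 alternatives and rank 71 in 12.

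**Figure D4:**
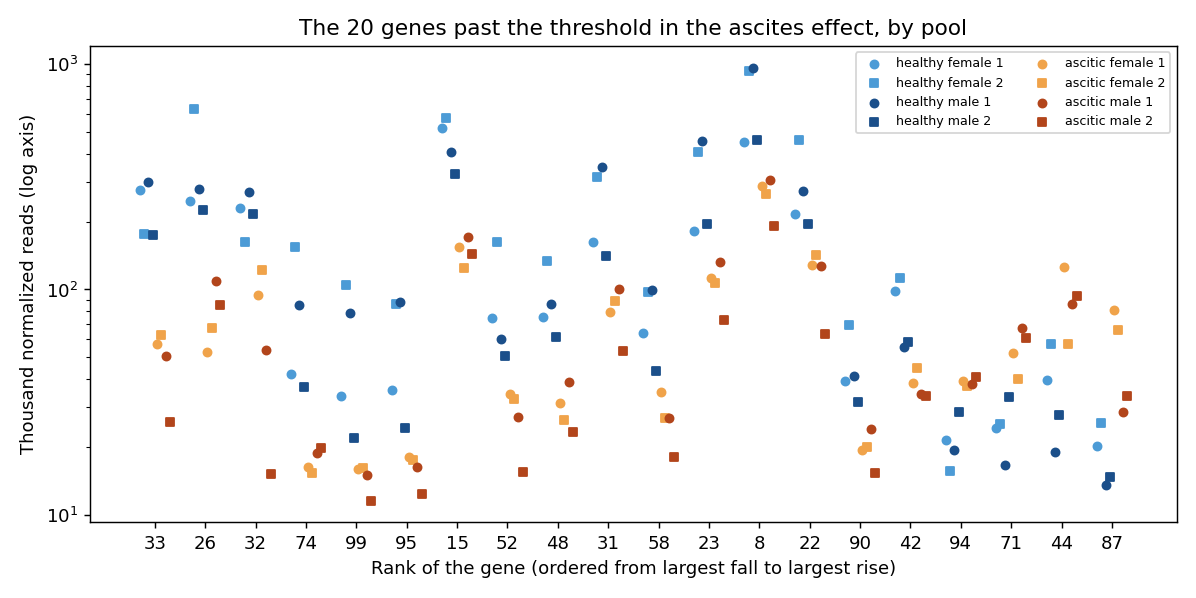
Kilo-reads (log axis) of the 20 genes past the threshold, 1 point per pool, ordered by log2 fold change from the largest fall (rank 33) to the largest rise (rank 87). In each gene the 4 healthy pools (blue) and the 4 ascitic pools (orange and red) do not overlap, and healthy female 2 or the pool labelled healthy male 1 often sits highest among the genes that fell.

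The direction of the list as a whole depended on the scaling. Scaling by total reads in place of the authors' factors raised the estimates of all 100 genes by a similar amount. Every called fall had a log2 fold change of -1.04 or lower, which that shift was too small to turn. The kept direction of the called genes therefore follows from their size and is no separate support. Size factors were 0.484 to 0.946 in healthy and 1.09 to 1.56 in ascitic pools, without overlap. With scaling by total reads, the median over all genes tested moved to a log2 fold change of 0.48 and that of the 100 genes to 0.14, so 37 of the 100 went from a lower to a higher estimate. Relative to all genes tested, the median of the 100 was lower by 0.51 with the authors' factors and by 0.34 with total reads.

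With total reads 9 of the 100 genes rose and 8 fell (limma, adjusted p under 0.05), where 16.7% of all genes tested were higher and 1.8% lower. All 16 genes that fell on the deposited scale kept a negative estimate and 7 of them stayed past the threshold, and all 4 that rose stayed past it. In shares of reads the ascitic pools lay wholly below the healthy ones for 19 of the 100 genes and wholly above for 13, against 2.88% and 24.3% of all genes tested.

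Rank 5 was among those whose answer turned on the scaling. Its share was 1.20% to 2.22% in healthy pools and 2.47% to 5.70% in ascitic pools, without overlap. In normalized reads its pools overlapped, and the log2 fold change was 0.52 (limma, adjusted p = 0.481), against 1.15 with total reads (limma, adjusted p = 0.0349). Rank 10 moved likewise, from 0.75 (limma, adjusted p = 0.258) to 1.37 (limma, adjusted p = 0.0472).

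The number of genes called rested on single pools, and so did its excess over the share of all genes tested. The count lay near that share without the pool labelled healthy male 1, without either ascitic female pool and without ascitic male 2. It stayed above that share without healthy female 1, healthy female 2 or healthy male 2. Dropping the pool labelled healthy male 1 left 3 of the 20 (limma, 2.63% of all genes tested were then called). Dropping either ascitic female pool left 2 and 3 (3.46% and 3.08%), and dropping either ascitic male pool left 6 and 3 (3.64% and 2.74%). Without healthy female 2 it was 30 (19.2%), and without both that pool and the pool labelled healthy male 1 it was 18 (14.8%), of which 14 were among the 20. All 20 kept their direction in each of these fits. That was fixed beforehand, since their healthy and ascitic pools did not overlap in normalized reads, and it adds no support.

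The comparison of males with females over both disease states called 0 of the 100 genes (limma, 0.0% of all genes tested), as did limma-voom with and without sample weights for these genes. At an unadjusted p under 0.05 there were 4, where 6.73% of all genes tested had such a p. They were ranks 87, 52 and 42, lower in males, and rank 83, higher in males, and they are named because of that p. No gene of the 100 had 4 male pools wholly above or below the 4 female pools, against 1.34% above and 1.24% below over all genes tested.

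The median log2 difference, male minus female, was -0.18 for the 100 genes and -0.02 for all genes tested. With scaling by total reads these were 0.02 and 0.12. For ranks 1 to 10 the difference ran from -0.39 to 0.12, and the smallest adjusted p among them was 0.883 (limma). These values include the pool labelled healthy male 1. With that pool counted as male, the fit did not call even the 11 genes given above in which it went against its label. The 0 genes called for sex can therefore not be read as the absence of a sex difference.

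Rank 87 had the smallest p of the 100 genes for sex. Its mean was 48.2 ± 29.9 kilo-reads in female and 22.6 ± 10.03 kilo-reads in male pools (SD, n = 4 each), and the log2 difference was -0.96 (SE 0.24, limma, adjusted p = 0.438). Rank 83 had 21.1 to 29.1 kilo-reads in female and 29.1 to 47.4 kilo-reads in male pools, a log2 difference of 0.64 (SE 0.26, limma, adjusted p = 0.704). Healthy female 1 and ascitic male 2 met at the boundary of these ranges.

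Within each sex, 2 ascitic pools were set against 2 healthy pools. The healthy males include the pool labelled healthy male 1, which went against its label in the genes given above. The effect in males and its difference from that in females both rest in part on this pool. In females 0 of the 100 genes passed (limma, 0.0363% of all genes tested), and 30 had an unadjusted p under 0.05, against 21.5% of all genes tested. In males 4 of the 100 fell and 0 rose (limma, 1.29% of all genes tested were lower and 2.03% higher). The 4 were ranks 30, 32, 33 and 85. An unadjusted p under 0.05 in males was found for 28, against 18.2% of all genes tested.

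Rank 85 was high in the healthy male pools alone. It had 113 and 137 kilo-reads in the healthy males and 18.1 and 27.1 kilo-reads in the healthy females. Ascitic females had 17.0 and 20.7 kilo-reads, and ascitic males had 20.53 and 12.5 kilo-reads. The log2 fold change with ascites was -2.95 in males (SE 0.39, limma, adjusted p = 0.0131) and -0.24 in females (limma, adjusted p = 0.722).

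The difference between those effects for rank 85 was -2.71 and did not pass (limma, adjusted p = 0.551). Both healthy male pools showed the high level, the pool labelled healthy male 1 included.

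Rank 30 was low in both ascitic male pools. It had 55.2 and 36.5 kilo-reads there, against 316 and 272 kilo-reads in the healthy males, 218 and 90.7 kilo-reads in the healthy females and 226 and 168 kilo-reads in the ascitic females. The log2 fold change was -2.71 in males (limma, adjusted p = 0.0283) and 0.47 in females, and the difference of -3.18 did not pass (limma, adjusted p = 0.601). Rank 32, given above, fell by 3.08 on the log2 scale in males (limma, adjusted p = 0.0324) and by 0.84 in females (limma, adjusted p = 0.396).

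The test of whether the ascites effect differs between the sexes called 0 of the 100 genes (limma, 0.0% of all genes tested). At an unadjusted p under 0.05 there were 6, against 6.07% of all genes tested. The smallest adjusted p among the 100 was 0.551, and limma-voom with and without sample weights also called 0 of them. The sign of the effect was the same in females and males for 76 of the 100 genes, 62 lower and 14 higher in both, and it was the same for 69.6% of all genes tested. Across the 100 genes the Pearson correlation of female and male log2 fold changes was 0.51, and across all genes tested 0.56; the pools are separate, and genes are not independent replicates.

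**Figure D5:**
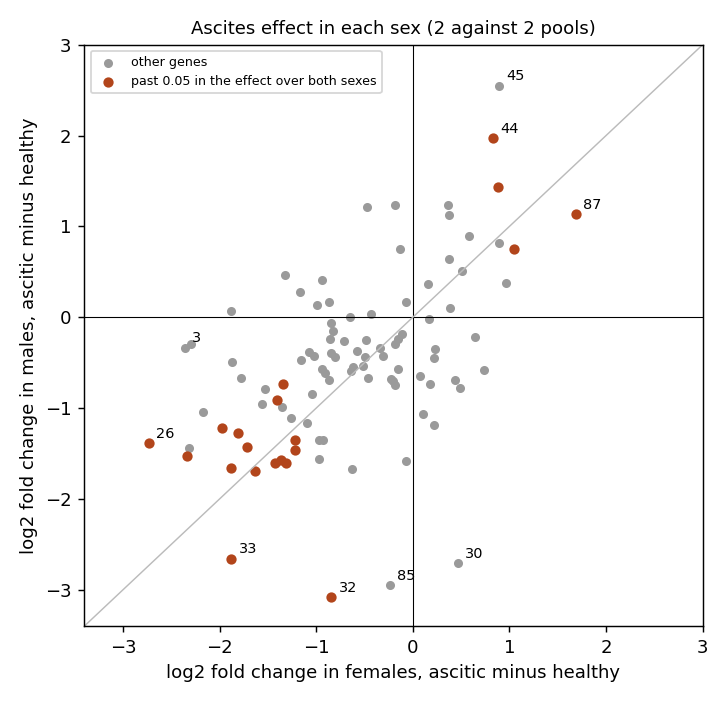
Log2 fold change, ascitic minus healthy, in males (y axis) against females (x axis) for the 100 genes, with equality as a grey line and red points for the 20 genes called over both sexes. Ranks 30, 32 and 85 lie near -3 in males and between -0.84 and 0.47 in females, and 62 of the 100 genes lie in the lower left part.

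These counts also depended on single pools. In females the 0 became 37 without healthy female 1 (36.7% of all genes tested) and 1 without healthy female 2. In males the 4 became 14 without healthy female 1 and 15 without healthy female 2, where 12.9% and 12.8% of all genes tested were called. It was 1 without either ascitic female pool (1.12%) and 0 without any 1 of the 4 male pools. These member counts lay near the shares over all genes. The interaction went from 0 to 17 without healthy female 1 (16.2% of all genes tested). A pool left alone in its group was then assumed to vary like the other groups.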

How the data were processed

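Per the labels' protocols, liver RNA of 4 birds was combined per pool, and RNA of integrity number over 7.5 gave poly(A)-selected libraries. The submitters' processing notes list HTSeq 0.6.1 and DESeq2 1.22.1 (R 3.5.1), TopHat2 2.0.9 with Bowtie2 2.0.6, Trimmomatic 0.10.1, and, all as 0.10.1, Cuffdiff, FastQC and Cufflinks, without saying what each did. No batch is named in the labels, and the genome build used is not given in the sources used here.

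Values on a log2 scale were deposited by the authors, though their table is named as counts. Its lowest value, 4.11, is shared by all 8 columns. Inverting a variance-stabilizing transformation gave whole reads for 100% of values, within 0.01 of a read, and the authors' size factors, which were 0.998 to 1.002 times factors computed here by the median of ratios.

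limma 3.58.1 (R 4.3.3, statmod 1.5.0; trend and robust options) was fitted to the deposited values of the 13766 genes reaching 10 reads (scaled to the median library) in 2 pools and 15 summed. The Benjamini-Hochberg adjustment ran over all of these genes, with a threshold of 0.05. Ascites and sex effects came from an additive model of all 8 pools, the others from 4 group means. The fit was tested on simulated data with the same spread in all pools, no outlying pool and no sex effect. That simulation therefore does not bear on the unusual pools described here. Tables and plots were made with Python 3.11.15 (pandas 2.3.3, matplotlib 3.10.9).

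The members, lists and tests were chosen with earlier results of these data known. Genes to be named were ranks 1 to 10, those past the threshold for ascites or sex, the 5 steadiest and 5 most variable, and the list's edge. IDs were limited to the 2 largest rises and falls that passed, since 0 of the IDs matched the 25635 reference genes (GRCg7b, with 0 Ensembl cells filled). Gene lists and cell type markers given by symbol were not analysed here. The alternatives were other size factors, filters, scales, variance options, limma-voom, a replicate block, pools left out, fits within 1 sex and other member rules.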

Additional observations from a re-analysis of the deposited data

Results flagged for a closer look

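In sets of 4 pools of 1 disease state, a pool far from the other 3 was searched by its gap to the nearest pool over the whole range (Dixon's 95% critical value). Of 64 sets, 6 held one; chance flags about 1 set in 20, and the sets are related to each other. Healthy female 2 was the far pool in 4 of the 6. Ranks 1 to 10 took 35.3% of its reads, against 28.9% to 29.3% in the other healthy pools. It held 6152 kilo-reads of rank 3, against 916 to 1178 kilo-reads. Rank 5 had 1229 kilo-reads there, against 395 to 491 kilo-reads, and rank 26 had 633 kilo-reads, against 226 to 279.9 kilo-reads. These 3 flags were found in normalized reads, and in shares of reads the pool stood closer to the others. Its shares were 11.1% for rank 3, against 2.78% to 3.92%, and 2.22% for rank 5, against 1.20% to 1.70%. For rank 26 the share was 1.14%, against 0.785% to 0.849%.

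Ascitic male 1 was the far pool in the other 2 sets. Ranks 1 to 10 took 33.2% of its reads, against 27.6% to 27.9% in the other ascitic pools. It held 1253 kilo-reads of rank 3, against 479 to 577 kilo-reads. In shares of reads rank 3 stood at 4.45% there, against 2.11% to 2.66%.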

How the results depend on the processing

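The first 50 genes held 11 of the genes called for ascites and the first 200 held 43, counts that follow the length of the list. The 20 genes called among the 100 became 7 with the replicate block (6.04% of all genes tested, so near that share). With 1 pool left out they ran from 2 to 30, and with both unusual healthy pools left out there were 18. In females the 0 became 2 with total reads (1.53% of all genes tested), 5 without both pools (4.86%) and 0 to 37 with 1 pool left out. In males the 4 became 11 under limma-voom with weights per sample (7.2% of all genes tested), 8 in a fit of the male pools, 8 with members chosen by mean normalized reads, 12 among the first 200 genes and 0 to 15 with 1 pool left out. The interaction ran from 0 to 17 with 1 pool left out, and the sex effect stayed at 0 in all 22 alternatives. For males, the 8 and 12 genes under other member rules came from the same fit as the 4. In that fit 1.29% of all genes tested were lower and 2.03% higher. No share of all genes tested is given for the fit of the male pools, so its 8 genes are not read as a gain among the 100. The median log2 fold change of the 100 genes for ascites turned from -0.48 to 0.14 with total reads. Their share of reads was 53.6% (healthy) and 48.7% (ascitic) for 50 genes and 67.9% and 63.0% for 200. The ascites log2 fold change of rank 1 was 0.24. It ran from -0.044 (without healthy female 2) to 0.50 with 1 pool left out and was -0.37 without both pools. Rank 9 went from 0.31 to a range of -0.039 (without the pool labelled healthy male 1) to 0.49. The cause was not tested. Same-numbered pools share no label beyond the number, and their deviations from the group means correlated from -0.42 to 0.32 between groups. Planned fits with edgeR and DESeq2 were not run; the recovered reads were tested with limma-voom. The least read member had 5354 reads in a pool.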
